A study of Mus musculus with 3 samples.

Results

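Zbtb7a encodes a transcriptional repressor with a BTB domain and a zinc finger domain, also known as LRF or Pokemon. AGO2-bound RNA at this gene was described in the mouse line P19, which derives from an embryonal carcinoma and has properties of pluripotent cells. The study pulled down AGO2 by HITS-CLIP in 3 libraries of P19 cells, all made with antibody clone 2D4, which form a single group without controls, and the labels name no treatment. The authors deposited 4 peak lists for the series as a whole, from the callers PIPE-CLIP, Pyicoclip, Piranha and CIMS. The Zbtb7a peaks were chosen by position, as every peak of any list and either strand with its midpoint in the gene span. That span is chromosome 10, 81135225 to 81152222, on the plus strand of mm10, with positions counted from 1. The rule took 17 of the 6911 peaks in the 4 lists. The gene itself was chosen from the lists because each of them had a peak in it, so its presence in all lists is a description with no test.

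AGO2 holds a microRNA and carries it to RNAs that pair with its seed, and the RNA is then destabilised or translated less. In HITS-CLIP, ultraviolet light fixes AGO2 to the RNA it touches, so a peak marks RNA near the protein and need not mark a change in the level of that RNA. The Zbtb7a protein binds DNA through its zinc fingers and recruits corepressors through its BTB domain. It is known as a repressor of fetal globin genes in erythroid cells, as a regulator of lymphocyte fate and, in mouse fibroblasts, as a repressor of the Arf transcript of Cdkn2a.

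AGO2 peaks of Zbtb7a lay in the last 3708 nt of its 16998-nt span and formed 7 separate sites. CIMS gave 1 peak, Piranha 2, Pyicoclip 6 and PIPE-CLIP 8. Pyicoclip and PIPE-CLIP thus supplied 14 of the 17 peaks. No site held peaks of all 4 lists, 2 sites held 3 lists, 3 sites held 2 lists and 2 sites were in PIPE-CLIP alone. A site here is a run of peaks that overlap by at least 1 nt, with lists merged and strand ignored. The lists belong to the same series of 3 libraries and are not replicates of the cells, and which libraries went into each list is not stated. No value per library was used, so no spread between libraries and no error of a peak could be given, and the depth behind each peak is unknown.

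**Figure D1:**
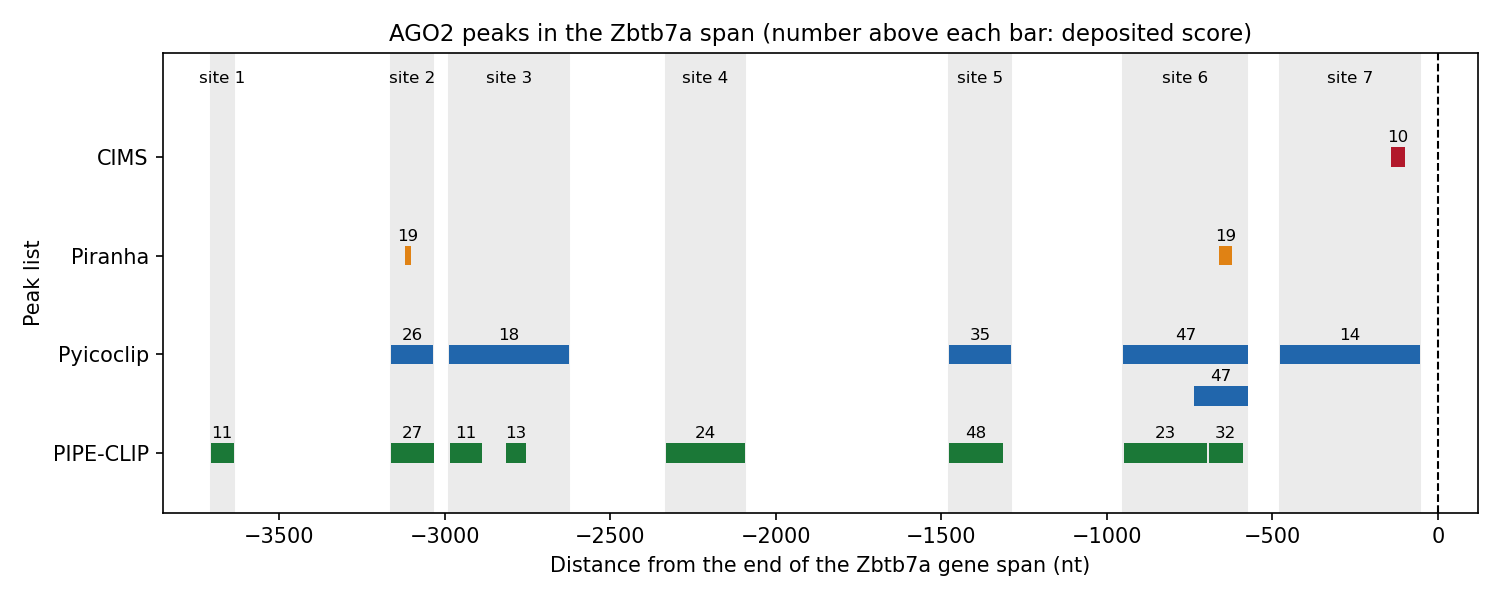
Position of each Zbtb7a peak by list, with the distance from the end of the gene span in nt on the horizontal axis and the deposited score above each bar. Grey bands mark the 7 sites, of which sites 2 and 6 hold peaks of 3 lists, and the CIMS peak sits alone with a wide Pyicoclip peak at site 7.

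Among 21900 annotated protein-coding genes, 0.105% had a peak in all 4 lists, or 23 genes, and among annotated genes of any type the share was 0.066%, or 33 genes. The share of protein-coding genes with a peak was 0.279% in CIMS, 2.89% in Piranha, 4.54% in Pyicoclip and 7.12% in PIPE-CLIP. Genes with at least 17 peaks over the 4 lists made up 0.0365% of protein-coding genes. At least 8 PIPE-CLIP clusters were held by 0.151%, at least 6 Pyicoclip peaks by 0.032% and at least 2 Piranha peaks by 0.311%. A site found by several callers counts once for each of them, so 17 is the number of peaks and not of bound sites.

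The first site, at 81148515 to 81148584, was a PIPE-CLIP cluster of 70 nt with a score of 11. Scores are values given by the authors in no stated unit, with a lowest listed value of 10, and they rank peaks only within a list. The cluster at site 1 outscored 14.1% of its list. It lay 476 nt before the next site, the widest gap but one in the row of sites.

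Site 2, at 81149061 to 81149188, was found by 3 callers. The Pyicoclip peak and the PIPE-CLIP cluster began at the same base and ended 1 nt apart, and the Piranha peak of 20 nt lay inside them. Their scores were 26 in Pyicoclip, 27 in PIPE-CLIP and 19 in Piranha. These values exceeded 92.5%, 90.1% and 89.3% of their own lists, so this site ranked high in each list that held it.

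Site 3 began 46 nt further on, at 81149235, and ended at 81149596. Here a Pyicoclip peak of 362 nt with a score of 18 covered a pair of PIPE-CLIP clusters with scores of 11 and 13. The Pyicoclip peak exceeded 82.1% of its list, while the clusters exceeded 14.1% and 39.4% of theirs. The 2 callers thus placed this stretch at different ranks. Site 4, at 81149890 to 81150128, was a PIPE-CLIP cluster of 239 nt with a score of 24, higher than 86.8% of the list, and no other caller had a peak there.

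Site 5, at 81150746 to 81150932, held the highest PIPE-CLIP score of the gene, 48, which exceeded 97.6% of the list (95% Wilson interval 97.0 to 98.1), with 75 clusters scoring higher. Among the 422 plus-strand clusters of the list, that score, the best of 8 in the gene, exceeded 92.9%, with 29 higher. The Pyicoclip peak began at the same base, ended 24 nt later and scored 35, above 95.4% of its list. Neither Piranha nor CIMS had a peak at this site. The interval treats the peaks of the list as a sample and gives no error of the score itself.

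Site 6, at 81151272 to 81151647, held 5 peaks and the highest Pyicoclip score of the gene. Pyicoclip listed a pair of nested intervals there, of 376 and 161 nt, which ended at the same base and carried the same score of 47. That score exceeded 97.1% of the Pyicoclip list (95% Wilson interval 96.2 to 97.7). PIPE-CLIP divided the same stretch into clusters of 253 and 104 nt with scores of 23 and 32. The Piranha peak of 40 nt scored 19, as at site 2, and lay inside the cluster that scored 32. All 3 callers therefore overlapped in the last part of site 6, at 81151561 to 81151600.

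Site 7, at 81151746 to 81152167, ended 55 nt before the end of the span. It was the only site with a CIMS peak, which covered 81152081 to 81152121 and had a score of 10. The wide Pyicoclip peak around it, of 422 nt, had the lowest Pyicoclip score of the gene, 14, and no strand. Piranha and PIPE-CLIP had no peak at this site. CIMS looks for sites where reads share mutations left by the crosslink, and its peak names carry numbers k and m. For the Zbtb7a peak k was 10 and m was 3, each the lowest in the list. Its k equals its score, and both k and the score ran from 10 to 187 over the list. The low k and low score are thus not separate signs. A score of 10 was shared by 16 of the 169 CIMS peaks, and an m of 3 by 87.

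The place of Zbtb7a among genes in all 4 lists thus turned on a CIMS peak at the lowest listed score. With peaks of a score of at least 15, Zbtb7a had 12 peaks in 3 lists and genes in all 4 lists fell from 33, of any gene type, to 13. Of the 33 genes, 26 had a single CIMS peak, so most of them rested on 1 peak of that list. Zbtb7a was among 6 of the 33 with no site shared by all lists. The others were Gm40527, Pfn1, Spata5, Trib1 and Trpm3, named here after their values were seen.

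**Figure D2:**
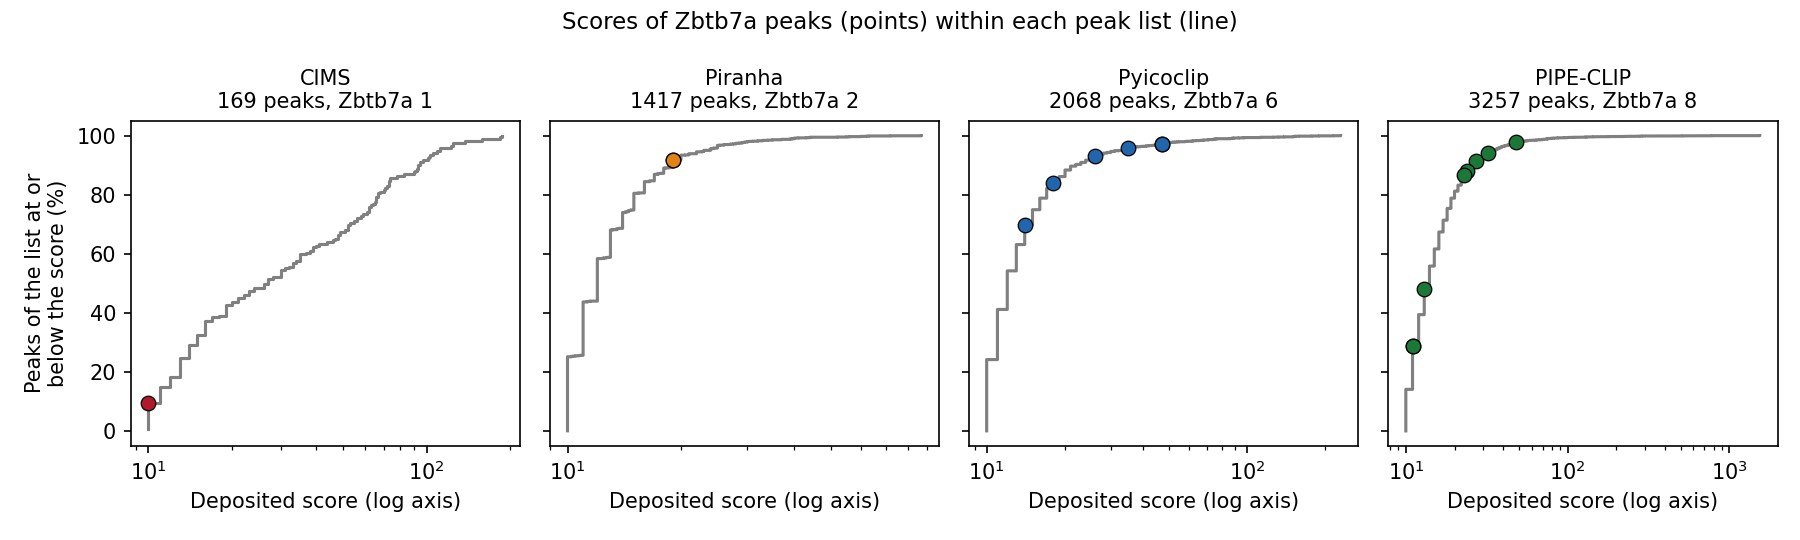
Cumulative share of peaks in each list (%, vertical axis) at or below a deposited score (log horizontal axis), with Zbtb7a peaks as points. The CIMS peak sits at the lowest score, 10, while the Pyicoclip points run from 14 to 47 and the PIPE-CLIP points from 11 to 48.

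Within lists, Zbtb7a peaks were mostly high in rank outside CIMS. All 6 Pyicoclip peaks scored above the list median of 12, with a median of 30.5. Both Piranha peaks, at 19, were above the median of 12. Of the 8 PIPE-CLIP clusters, 5 exceeded the list median of 14, and their own median was 23.5. The CIMS peak was below the list median of 27. No list held a score under 10, so these ranks are among peaks that had already passed that limit.

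The Pyicoclip peaks of Zbtb7a were all wider than the median of their list, and 6 of its 8 PIPE-CLIP clusters were. Its Pyicoclip peaks ran from 127 to 422 nt, with a median of 274.5 nt against 29 nt in the whole list. Its PIPE-CLIP clusters ran from 63 to 253 nt, with a median of 116 nt against 85 nt. The CIMS peak, of 41 nt, and the Piranha peak of 20 nt were as wide as the median of their lists, and the other Piranha peak was 40 nt. Together the peaks covered 1784 nt, or 10.5% of the span. Pyicoclip covered 1474 nt and PIPE-CLIP 1117 nt, and 807 nt were in both. This shared part was 72.2% of the PIPE-CLIP bases and 54.7% of the Pyicoclip bases. CIMS and Piranha covered 41 and 60 nt. No base was covered by 4 lists, 60 nt were covered by 3 and 788 nt by 2, and all 60 nt in 3 lists were those of the Piranha peaks.

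The names of PIPE-CLIP clusters carry running numbers that rose with position over all 173 clusters on chromosome 10. From site 1 to site 6 the numbers ran from 6595 to 6613, which is 19 numbers for 8 listed clusters. The other 11 numbers belong to no listed cluster on chromosome 10 and were not analysed here. Clusters on other chromosomes were not searched for these numbers.

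All 16 Zbtb7a peaks with a strand lay on the plus strand, the strand of the gene, and the remaining peak, from Pyicoclip, had none. The PIPE-CLIP list as a whole held 2835 clusters on the minus strand and 422 on the plus strand, so plus-strand clusters were 13.0% of it. Zbtb7a held 8 of those 422, or 1.90%. Of 181 protein-coding spans with a plus-strand cluster, 118 had 1 such cluster. Only Peg10, with 15, and Gigyf1, with 9, had more than Zbtb7a, and no other span had 8. Peg10 is an imprinted gene derived from a retrotransposon, and GIGYF1 belongs to a family of proteins that repress translation.

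Zbtb7a also ranked near the top in clusters on the strand of the gene, among protein-coding genes with 1 strand in the promoter table and clusters in exactly 1 gene span. There 113 of 8730 plus-strand genes and 991 of 8762 minus-strand genes had such a cluster. The plus-strand genes shared 200 clusters, of which Zbtb7a had 4.0%, and 1 of them, Gigyf1, had more. Among minus-strand genes, 12 had more than 8, up to 14. The number of PIPE-CLIP clusters of Zbtb7a therefore stood in a list with few plus-strand clusters, and the part of that imbalance in its number was not tested. In the other lists the plus-strand share was 61.0% in CIMS, 49.8% in Piranha and, among the 1931 Pyicoclip peaks with a strand, 51.5%.

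**Figure D3:**
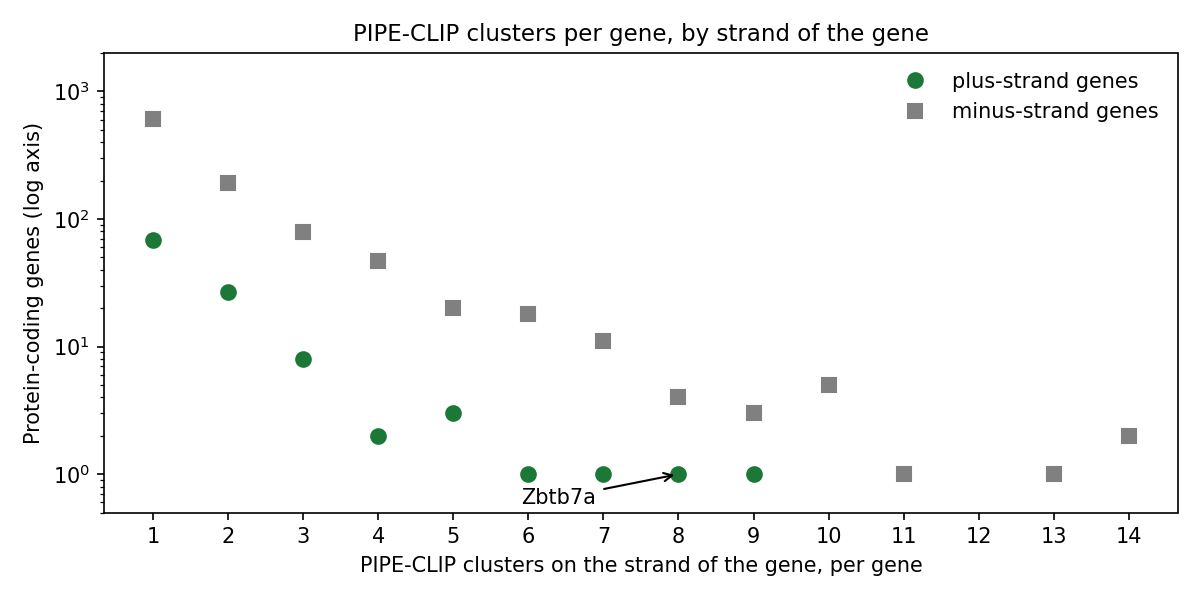
Number of protein-coding genes (log vertical axis) by the number of PIPE-CLIP clusters on their own strand (horizontal axis), for plus-strand and minus-strand genes. Zbtb7a is the only plus-strand gene with 8 clusters, and plus-strand genes end at 9 while minus-strand genes reach 14.

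A peak on the strand of the gene was not given by the rule, which took either strand. In other plus-strand protein-coding genes, 88.9% of 216 PIPE-CLIP clusters lay on the strand of the gene, 71.2% of 420 Pyicoclip peaks, 57.5% of 252 Piranha peaks and 80.0% of 25 CIMS peaks. For Zbtb7a the numbers were 8 of 8, 5 of 5, 2 of 2 and 1 of 1. Peaks of a gene share sites, so no test was run on these counts.

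The first 78.2% of the span, 13290 nt, held no peak of any list. The RefSeq promoter table gives 1 transcript start, at 81136271, and the first peak began 12244 nt after it. The gene has 6 RefSeq transcripts and its span begins before that start, at 81135225, so it need not be the only start. Of the 17 peaks, 9 had their midpoint in the last 10% of the span and 16 in the last 20%. Across other protein-coding genes with a known strand and peaks in 1 span, the last 10% held 37.4% of 3507 peaks. Among 145 such genes with at least 5 peaks, 41, or 28.3%, had their first peak as late in the span as Zbtb7a. The median position of its peaks was 91.8% of the span, against 91.6% for the medians of those genes. A lean towards the end of the span was therefore shared with many genes. Exons and untranslated regions were not used here, so no peak was placed in the coding sequence or in a 3′ untranslated region.

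No other annotated gene span held any of the 17 midpoints. The next peaks on the chromosome lay 235070 nt before the span and 25846 nt after it. Map2k2, a kinase gene of the MAP kinase pathway, ends 10527 nt before Zbtb7a and had no peak. Pias4, the gene of a SUMO ligase, begins 1738 nt after it and also had none. Mir5615-2, further upstream, had no peak either. Eef2, which encodes an elongation factor of translation, begins 24408 nt after Zbtb7a and had 7 Pyicoclip peaks and 5 PIPE-CLIP clusters. The sites of Zbtb7a were thus set apart from peaks of its neighbours.

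Likeness to other genes was measured as the distance between numbers of peaks, as log2 of the number plus 1, over the 4 lists. The nearest of all protein-coding genes was Ccng2, the gene of cyclin G2, at a distance of 0.17, with 1 CIMS, 2 Piranha, 6 Pyicoclip and 7 PIPE-CLIP peaks. Lin28a, which encodes an RNA-binding protein that blocks let-7 maturation, followed at 0.84. Gigyf1 was at 1.11, and Tnrc6a, which encodes a partner of Argonaute in silencing, at 1.18. Scd2, the gene of a fatty acid desaturase, was at 1.19. The measure rests on 4 numbers that come from the same series and says nothing of shared sequence or function.

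The 5 genes varied in where the lists met. Ccng2, Lin28a and Gigyf1 each had 1 site with peaks of all 4 lists, which Zbtb7a lacked. Tnrc6a and Scd2 had no CIMS peak, so neither could have such a site. Tnrc6a had 2 sites of 3 lists, as Zbtb7a did, and Scd2 had 1. In Ccng2 the peaks ran from 7.82% to 97.9% of the span, in Gigyf1 from 40.8% to 99.7% and in Lin28a from 70.7% to 99.5%. In Tnrc6a they ran from 80.1% to 99.0%, close to the 78.4% to 99.3% of Zbtb7a, though its span is 164196 nt long. In Scd2, read in ascending coordinates, they ran from 3.47% to 98.5%. The best PIPE-CLIP score was 53 in Ccng2, 33 in Scd2, 27 in Tnrc6a and 24 in Gigyf1, against 48 in Zbtb7a and 144 in Lin28a.

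**Figure D4:**
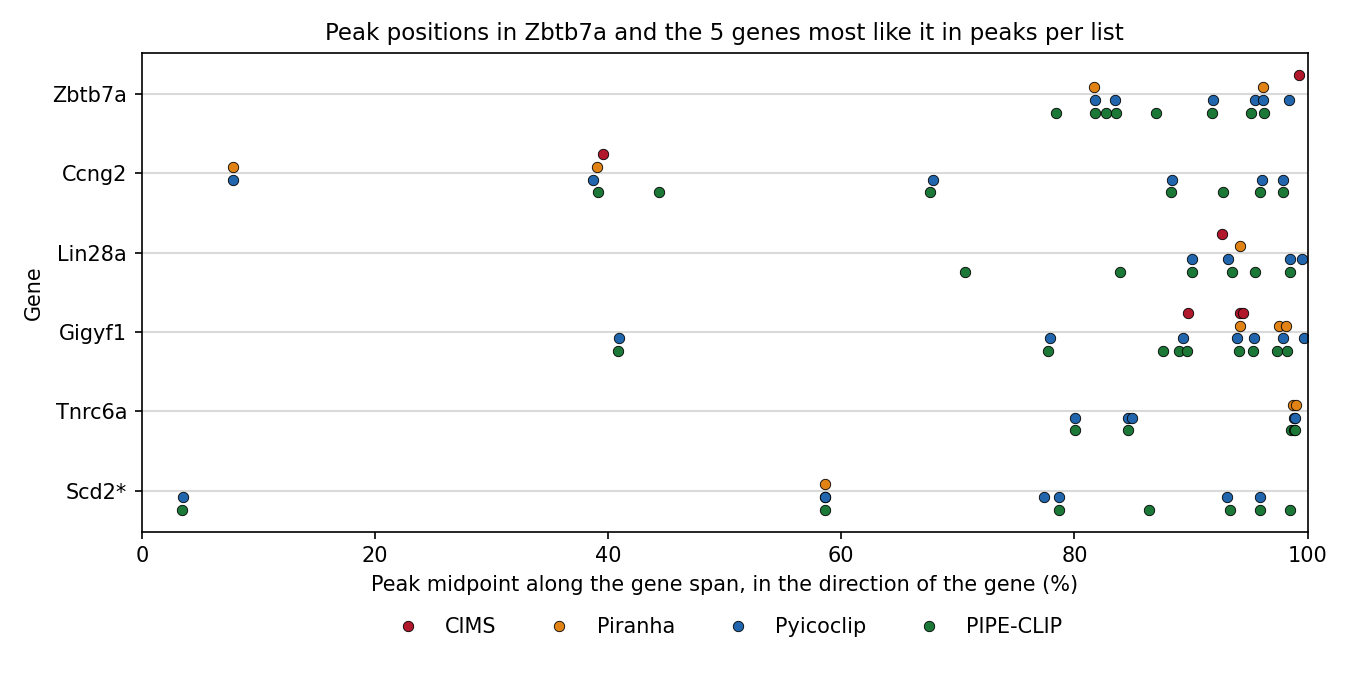
Midpoints of peaks along the gene span (%, in the direction of the gene) for Zbtb7a and the 5 genes nearest to it in peaks per list, coloured by list. For Scd2, marked with an asterisk, positions follow ascending coordinates because no strand was given. Zbtb7a and Tnrc6a have no peak before 78.4% of the span, unlike Ccng2, Lin28a, Gigyf1 and Scd2.

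Zbtb7a was chosen for its peaks in all 4 lists, so a contrast with its relatives is a description. Its relatives with a BTB domain and zinc fingers had at most 5 peaks each, against 17 in Zbtb7a. Of 45 such genes, 9 had a peak in any list, or 20.0% of them, against 9.77% of all protein-coding genes, and 4 had peaks in at least 2 lists, or 8.89% against 3.99%. The median was 0 peaks in this family and over all protein-coding genes. Zbtb37 had the most, with 5 PIPE-CLIP clusters, and no other caller listed it. Zbtb41 had 1 peak each in Piranha, Pyicoclip and PIPE-CLIP, and Zbtb20 had 1 each in CIMS, Piranha and Pyicoclip. Zbtb6 and Zbtb18 had 1 each in Pyicoclip and PIPE-CLIP. Zbtb7b, the regulator of CD4 T cell fate and a close relative of Zbtb7a, had 1 PIPE-CLIP cluster. None of the 45 had a peak in all 4 lists, which 0.105% of protein-coding genes had.

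Of 18 corepressor genes, 7 had a peak, or 38.9% against 9.77% of protein-coding genes. Peaks in at least 2 lists were held by 5 of them, or 27.8% against 3.99%. Bcor, which encodes a corepressor of BCL6, had 2 peaks each in Piranha, Pyicoclip and PIPE-CLIP. Gatad2b, a subunit gene of the NuRD complex, had 1 Piranha, 3 Pyicoclip and 2 PIPE-CLIP peaks. Mta2 and the deacetylase gene Hdac2, also of NuRD, had 1 each in Piranha and Pyicoclip. The median of this list was 0 peaks. The shares of this and the other gene lists were set against all protein-coding genes, with no matching for expression or span length.

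Of 11 genes described elsewhere as regulated by Zbtb7a, in mouse or human cells, 2 had a peak. That was 18.2% against 9.77% of protein-coding genes, with a median of 0 peaks. This list, like those of relatives and corepressors, was chosen with earlier results of these data known. The shares are therefore descriptions. Slc2a3, a glucose transporter gene, had 1 CIMS, 4 Piranha, 10 Pyicoclip and 15 PIPE-CLIP peaks. Pkm, the gene of a pyruvate kinase, had 2 Pyicoclip peaks and 1 PIPE-CLIP cluster. Cdkn2a, Cdkn1a, Rb1, Bcl2l11, Dll4, Sox9, Pfkp and the embryonic globin genes Hbb-bh1 and Hbb-y had none. Lists of AGO2 peaks do not measure the level of an RNA, so a gene with no peak may still be expressed. The same limit applies to the check of the cell line, in which 3 of 8 genes of pluripotent cells, Lin28a, Lin28b and Pou5f1, had a peak, or 37.5% against 9.77%. Only Lin28a was in at least 2 lists, or 12.5% of the 8 against 3.99% of protein-coding genes. Sox2, Nanog, Sall4, Utf1 and Dppa5a had no peak.

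Peaks over microRNA genes were looked up in the same lists, though the microRNAs that AGO2 carried were not measured on their own. Of 24 microRNAs on a fixed list, 22 matched the RefSeq table of GRCm38.p6, which shares its coordinates with mm10, and 8 had a peak over the mature sequence in at least 2 lists. These 8 are shown because they had peaks in the lists that hold the Zbtb7a sites. The seed, bases 2 to 8 from the 5′ end, is in capitals:
miR-302b-3p: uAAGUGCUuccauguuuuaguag
miR-93-5p: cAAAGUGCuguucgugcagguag
miR-92a-3p: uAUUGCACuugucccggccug
miR-25-3p: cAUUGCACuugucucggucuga
miR-181a-5p: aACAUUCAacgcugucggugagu
miR-182-5p: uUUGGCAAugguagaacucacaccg
miR-183-5p: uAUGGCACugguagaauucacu
miR-541-5p: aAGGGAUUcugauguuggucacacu

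The 8 microRNAs had 7 seeds, with miR-92a-3p and miR-25-3p sharing theirs. The miR-302b-3p seed is shared by miR-291a-3p and miR-294-3p, and the miR-93-5p seed by miR-17-5p, miR-20a-5p and miR-106b-5p. These 5 were also on the fixed list and had a peak in 0 lists. A microRNA with no listed peak may still be held by AGO2. In Piranha and Pyicoclip the highest scores of the 8 were those of miR-181a-5p at Mir181a-1, 30 in each, and its PIPE-CLIP score of 12 was tied with that of miR-93-5p. At Mir182 the scores were 20 in Piranha, 27 in Pyicoclip and 11 in PIPE-CLIP. At Mir183 they were 24 in Piranha and in Pyicoclip. The miR-93-5p peaks scored 13, 13 and 12 in Piranha, Pyicoclip and PIPE-CLIP. The miR-541-5p peaks scored 10 in Piranha and in Pyicoclip, the lowest listed value. Piranha and Pyicoclip gave equal scores at most of these loci, though not at Mir182 or Mir92-1. A peak in both lists therefore need not be separate evidence. Among these microRNAs, CIMS had a peak at miR-92a-3p alone, at its Mir92-2 copy, with a score of 16. The mature sequence is the same at Mir92-1 and Mir92-2, and at Mir181a-1 and Mir181a-2. That sequence alone therefore cannot tell which copy the RNA came from. The sequence under the 7 Zbtb7a sites was not used here, so which of these seeds has a match there was not examined.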

How the data were processed

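AGO2 HITS-CLIP reads of 3 P19 libraries were trimmed with cutadapt and aligned with Novoalign to mm10, per the submitters' processing notes. For tool versions, caller settings and the pooling of libraries, the labels give nothing. The authors deposited 4 peak lists with a score per peak, of no stated unit. Inserts were size-selected and amplified by PCR, per the labels' protocols, and no molecular identifiers are named there. The intervals treat the listed peaks as a sample and give no error of a peak or its score.

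Peaks were assigned to RefSeq gene spans of GRCm38.p6 by midpoint. Gene strand came from the RefSeq promoter table, which gave 1 strand for 17492 of 21900 protein-coding genes. Ranks are the share of a list with a lower score, with 95% Wilson intervals. No test was run, since no value per library was used and Zbtb7a was chosen from the lists. Named genes were the 5 most like Zbtb7a in peaks per list, 2 neighbours on each side and those members of 3 gene lists that at least 2 callers listed, with others named to complete a list. A gene that meets this rule is not reported here by name. The gene, the lists and the microRNAs were chosen with earlier results of these data known. The assignment, site merging and distances were tested on simulated data. Python 3.11.15, numpy 2.4.6, pandas 2.3.3, scipy 1.17.1 and matplotlib 3.10.9 were used.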

Additional observations from a re-analysis of the deposited data

How the results depend on the processing

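The 17 peaks became 11 without the Pyicoclip list and 9 without the PIPE-CLIP list, and between 12 and 17 under the other settings. The number of sites, 7, ran from 5 to 9. No site of all lists appeared under any setting except without CIMS, where 2 sites held each of the 3 lists that were left. Plus-strand peaks fell from 16 to 8 without PIPE-CLIP. Peaks in the last 10% of the span fell from 9 to 5 without Pyicoclip, and 16 lay in the last 20%. Genes in all 4 lists numbered 13 at a score of at least 15 and 11 in the better-scoring part of each list, meaning peaks at or above its median score, and Zbtb7a was in 3 lists under each. Its best Piranha rank of 89.3% became 92.5% among peaks in protein-coding spans and 91.5% among plus-strand peaks. Its best Pyicoclip rank of 97.1% became 98.3% in protein-coding spans. Its best PIPE-CLIP rank of 97.6% became 92.9% among plus-strand clusters. Counting nested peaks once, and the number of lists with a Zbtb7a peak, were added after seeing the data. No paired analysis was possible because the lists hold no value per library, and for the same reason no library could be left out. What the depth of the libraries limits is unknown.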
